A study of Mus musculus with 2 samples.

Results

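The nuclear-encoded subunits of oxidative phosphorylation were examined in primary chondrocytes, the cartilage cells, of control and *Myl3*-KO mice. The genes were taken by symbol (*Ndufa*, *Ndufb*, *Ndufc*, *Ndufs*, *Ndufv*, *Sdha* to *Sdhd*, *Uqcr*, *Cyc1*, *Cox4* to *Cox8* with an isoform letter, and *Atp5*), which gave 83 of the 22156 genes in the table. Complex I held 35 of them, complex II 4, complex III 9, complex IV 18 and complex V 17. Of the 83, 79 encode subunits, while *Ndufa4l2*, *Cox7a2l*, *Atp5s* and *Atp5sl* encode a paralogue and associated factors. A gene was tested where it had at least 10 counts over both libraries, which held for 76 of the 83.

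*Myl3* encodes a myosin light chain, and the RNA sequencing was made to compare chondrocytes with and without it. There was 1 library per genotype. In *Myl3*-KO mice Cre driven by the *Col2a1* promoter deletes floxed *Myl3*, and the methods name *Myl3* flox/flox littermates as controls, whereas the labels give the control genotype as WT. All mice were on the C57BL/6J background, and the cells came from newborn pups (rib cartilage in the labels, rib and articular cartilage in the methods) and were grown as an untreated monolayer, with the number of pups pooled not given in the sources used here.

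Oxidative phosphorylation takes place in the inner mitochondrial membrane. Complex I oxidises NADH and complex II oxidises succinate, and both pass electrons through ubiquinone to complex III, which reduces cytochrome c. Complex IV passes the electrons from cytochrome c to oxygen. Complexes I, III and IV pump protons, and complex V, the ATP synthase, uses the gradient to make ATP. Most of the subunits are encoded in the nucleus and imported. Cartilage has little blood supply, and chondrocytes are known for drawing much of their ATP from glycolysis.

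The totals were 17612434.91 expected counts (estimated reads per gene) for the control library and 13477976.98 for *Myl3*-KO. *Myl3* itself was at 0 counts in each library, and its deletion could not be checked from these reads. Of 10 chondrocyte markers, 9 were in the table, 5 of them (*Acan*, *Matn1*, *Matn3*, *Hapln1* and *Cnmd*) at 0 in both libraries, and the list summed to 897 counts for the control and 510 for *Myl3*-KO, mostly *Sox9* (866 and 480). *Col2a1* had 30 and 27 counts, so the defining cartilage matrix markers were near absent under the culture's label. Fibroblast markers (1 of 6, *Thy1*, at 0) took 1.54% of the control and 1.75% of the *Myl3*-KO counts, mostly *Col1a2* (211652 and 189213). They did not move together. By the log2 ratio defined below, *Pdgfra* stood at 0.61, *Col1a2* at 0.22, *Col1a1* at 0.15, *Col3a1* at 0.01 and *Postn* at -0.08. Muscle markers (7 of 10 at 0) summed to 79 and 293, mostly *Cdh15* with 73 and 290. Brown fat markers (2 of 4 at 0) summed to 1 and 3 counts, blood markers (2 of 5 at 0) to 19 and 17, and endothelial markers (1 of 3 at 0) to 7 and 10. The part of these markers in the results was not tested, and fewer cells of a type cannot be told apart from less RNA per cell in such bulk libraries.

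The start regions of 3 genes are shown because they hold, or lack, letters read by nuclear respiratory factor 1 (NRF1), a transcription factor known for driving many respiratory genes. *Uqcr11* had the lowest log2 ratio among all tested members, *Uqcrc1* the highest in complex III, and *Atp5b* the highest level of any member. Each sequence runs 5′ to 3′ from 250 bases before the RefSeq start to 50 from it, on GRCm38.p6, with matches in capitals. *Uqcr11* lies on the minus strand at chr10:80406772-80407071, *Uqcrc1* on the plus strand at chr9:108936398-108936697 and *Atp5b* on the plus strand at chr10:128083057-128083356.
Uqcr11: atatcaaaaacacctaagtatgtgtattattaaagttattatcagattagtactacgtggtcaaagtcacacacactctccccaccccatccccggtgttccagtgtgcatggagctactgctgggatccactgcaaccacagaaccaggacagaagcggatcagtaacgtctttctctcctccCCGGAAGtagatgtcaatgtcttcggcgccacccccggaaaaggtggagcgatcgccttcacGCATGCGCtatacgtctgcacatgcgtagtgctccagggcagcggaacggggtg
Uqcrc1: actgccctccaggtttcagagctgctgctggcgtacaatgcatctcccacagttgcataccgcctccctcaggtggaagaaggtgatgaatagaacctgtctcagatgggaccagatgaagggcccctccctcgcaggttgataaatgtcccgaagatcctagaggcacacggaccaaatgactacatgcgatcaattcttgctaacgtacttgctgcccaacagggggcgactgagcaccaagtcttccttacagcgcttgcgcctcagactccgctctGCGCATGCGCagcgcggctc
Atp5b: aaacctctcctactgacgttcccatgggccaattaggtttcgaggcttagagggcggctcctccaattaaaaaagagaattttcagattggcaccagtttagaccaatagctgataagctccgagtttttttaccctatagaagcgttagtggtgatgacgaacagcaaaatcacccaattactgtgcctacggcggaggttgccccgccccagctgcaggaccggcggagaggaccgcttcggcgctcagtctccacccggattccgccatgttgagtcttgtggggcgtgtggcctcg

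In the *Uqcr11* sequence the capitals mark CCGGAAG, the core letters of ETS factors such as GABP, beginning 66 bases before the start, and GCATGCGC, the NRF1 letters, beginning 4 bases before it. In *Uqcrc1* they mark the NRF1 letters on both strands, overlapping, with first bases 31 and 33 counted from the start. The *Atp5b* window held none of the letters searched. Promoters were found by symbol for 66 of the 83 genes, of which 62 were tested, and GCATGCGC or its reverse GCGCATGC stood in 10 of the 62 (16.1%), compared with 6.27% of the 9430 tested genes with a promoter and 3.05% of all 27025. The letters of YY1 (AAGATGGC or GCCATCTT) stood in 9 (14.5%), compared with 5.44% of tested and 3.19% of all promoters. The ETS letters (CCGGAAG or CTTCCGG) stood in 16 (25.8%), compared with 20.6% of tested and 9.93% of all promoters. The median log2 ratio was -0.21 in members with the NRF1 letters and -0.23 in those without, and members with them spanned -0.42 to 0.07. With and without the YY1 letters the medians were -0.19 and -0.23, and with and without the ETS letters -0.25 and -0.20. A match is only a match of letters, not a shown binding site.

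Levels were read in FPKM, which scales reads by gene length and library. The median over the tested members was 97.3 FPKM in the control and 83.7 in *Myl3*-KO, compared with 11.6 and 11.8 over all tested genes. The complexes differed in level, with control medians of 74.3 FPKM for complex I, 76.3 for complex II, 140 for complex III, 181 for complex IV and 233 for complex V. The highest member was *Atp5b*, the catalytic beta subunit of the ATP synthase, with 939 FPKM in the control and 822 in *Myl3*-KO. Next came 3 complex IV genes. *Ndufa4* stood at 578 and 481 FPKM, *Cox8a* at 566 and 474, and *Cox6a1* at 563 and 486. At the low end *Atp5e*, the epsilon subunit of the same ATP synthase, was listed at 1.35 and 1.06 FPKM from 10 and 6 counts, far below every other subunit that was tested.

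**Figure D1:**
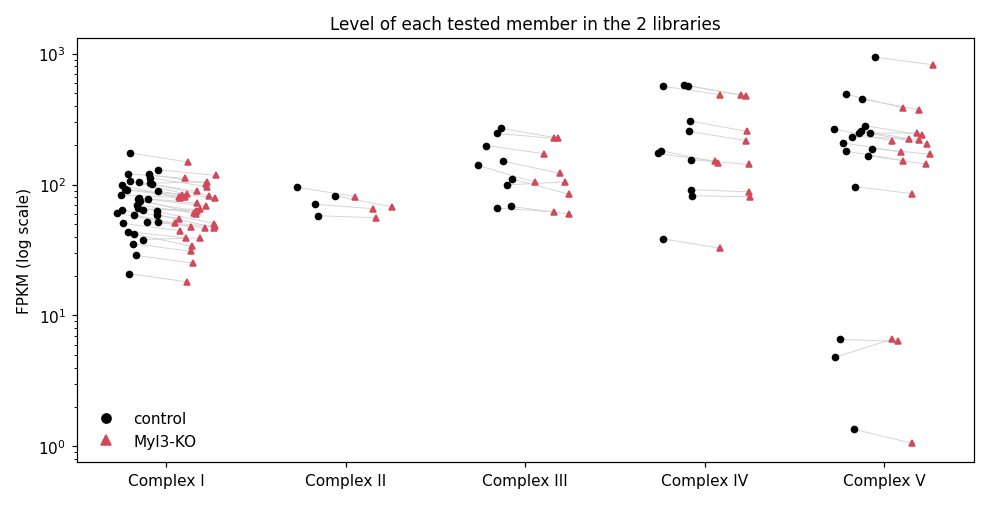
Each pair of points joined by a line is 1 tested member, with its FPKM on a log axis in the control (black circle) and in Myl3-KO (red triangle) libraries, by complex. Most lines slope down by a small step, and the 3 pairs under 10 FPKM in complex V are Atp5s, Atp5sl and Atp5e.

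Of the paired isoforms, the libraries held the common one and almost none of the tissue-specific one. The heart and muscle forms *Cox6a2*, *Cox7a1* and *Cox8b* had at most 2 counts in a library, whereas in the control their common partners *Cox6a1* had 5661, *Cox8a* 5436 and *Cox7a2* 447. The testis forms *Cox6b2*, *Cox7b2* and *Cox8c* and the low-oxygen paralogue *Ndufa4l2* had 0 counts in both libraries. These 7 genes were the members left untested, and the limit that a count of 0 allows, set at 3 counts, was 0.170 CPM (counts per 1000000 of the library total) for the control and 0.223 for *Myl3*-KO.

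Differences are given as log2 ratios, *Myl3*-KO over control, each count taken over its library total. The median of the 76 tested members was -0.21, or 13.4% lower, with a range from -0.42 to 0.27, compared with a median of 0.02 over all 12431 tested genes. In 71 of 76 members (93.4%) the ratio was below 0, as it was in 47.3% of all tested genes. All members together took 1.09% of the control counts and 0.954% of the *Myl3*-KO counts. The difference was thus small in each gene and of the same sign in nearly the whole family.

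For each gene the rounded counts were set against the library totals with a two-sided exact binomial test, adjusted over all tested genes (Benjamini-Hochberg), and a gene was called where the adjusted p was under 0.05 and the log2 ratio at least 0.25 in size, which is 15.9% lower or 1.19-fold higher. The test and its 95% Clopper-Pearson intervals cover counting error only and compare these libraries, not the genotypes, and no replicate checks them. Lower calls were made for 21 of the 76 (27.6%), against 8.39% of all tested genes. Higher calls were made for 0, against 11.4%. Without the limit on size, 51 (67.1%) were lower and 0 higher, against 16.8% and 18.6% of all tested genes. No member was lower by as much as 0.5.

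**Figure D2:**
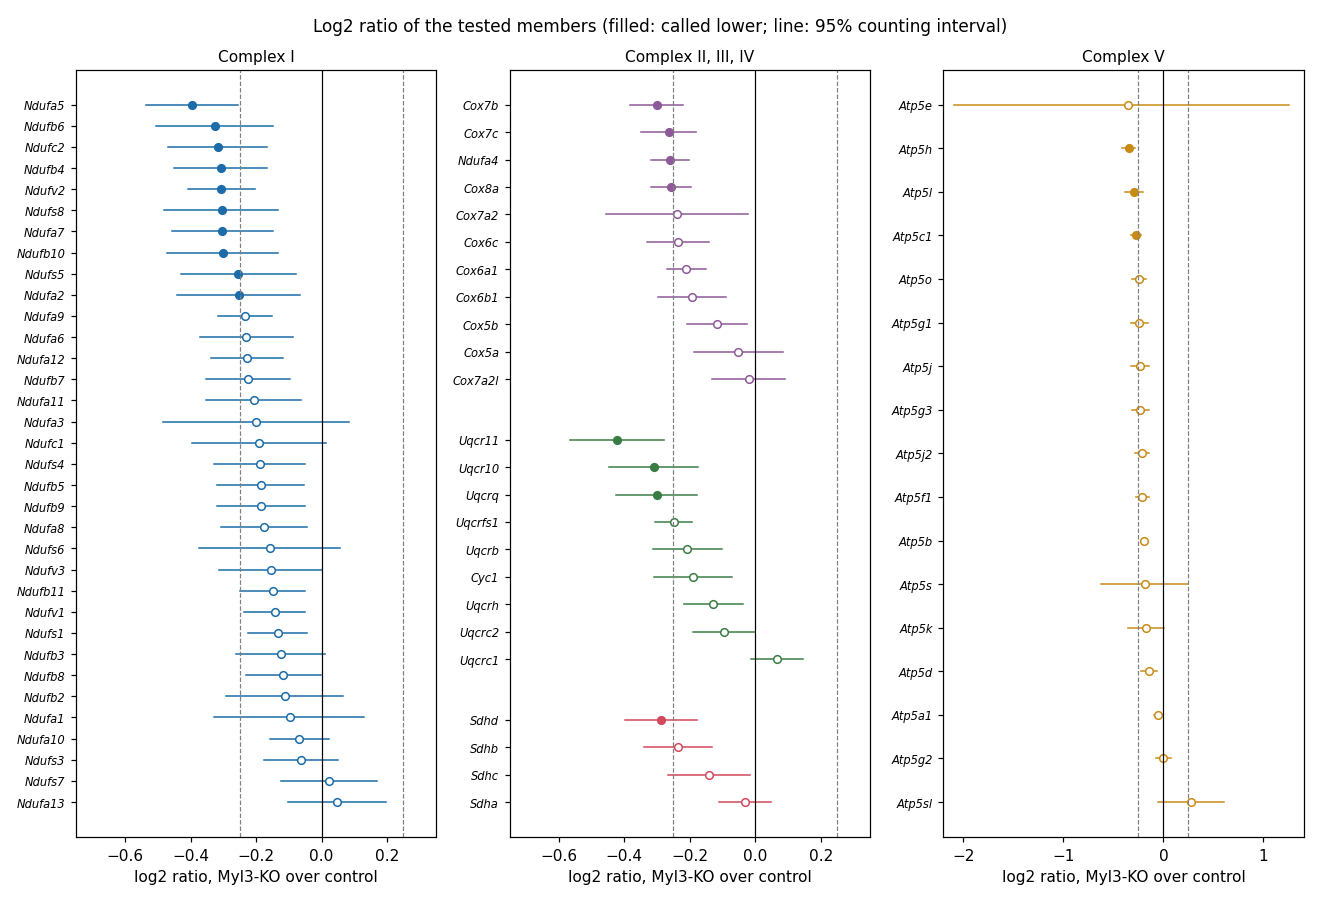
Points are log2 ratios of Myl3-KO over control (x axis) for 75 of the 76 tested members, with lines for the 95% counting interval, filled points for the 21 called lower and dashed lines at -0.25 and 0.25. The panel of complex V has a wider axis, and most points lie left of 0, from -0.42 for Uqcr11 to 0.27 for Atp5sl.

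In complex I, 32 of the 35 genes had a ratio below 0 and 10 were called lower, with a median of -0.19. The shares over all tested genes, 47.3% below 0 and 8.39% called lower, apply to each complex below as well. The 7 core subunits, which carry the flavin, the iron-sulfur clusters and the quinone site on the arm outside the membrane, did not move as 1 group. *Ndufv2* went from 1992 to 1233 counts (log2 -0.31, interval -0.41 to -0.20) and *Ndufs8* from 709 to 439 (-0.31, -0.48 to -0.13), and both were called lower. *Ndufv1*, which binds NADH, had 2297 and 1591 counts (-0.14) and *Ndufs1* 2377 and 1657 (-0.13), both lower beyond counting error and under the limit. *Ndufs3* had 1533 and 1123 counts (-0.06). *Ndufs7* had 875 and 680 counts (0.02, -0.12 to 0.17), and its interval did not reach that of *Ndufv2*.

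The 28 accessory subunits, which surround this core and are needed for its assembly and stability, had a median of -0.19, and 27 were below 0. The lowest was *Ndufa5* (chr6:24518666-24528013, GRCm38), with 1133 control and 659 *Myl3*-KO counts (-0.40, -0.54 to -0.26). *Ndufb6* followed with 681 and 416 counts (-0.33) and *Ndufc2* with 956 and 587 (-0.32). The other accessory subunits called lower were *Ndufb4* (1064 and 658 counts, -0.31), *Ndufa7* (903 and 560, -0.30), *Ndufb10* (754 and 468, -0.30), *Ndufs5* (681 and 437, -0.25) and *Ndufa2* (606 and 389, -0.25). The *Ndufb* and *Ndufc* genes among them belong to the membrane arm. All 10 *Ndufb* genes were below 0, with a median of -0.19, as were 11 of the 12 *Ndufa* genes of complex I, with a median of -0.22. The exception was *Ndufa13* (836 and 661 counts, 0.05, -0.10 to 0.20).

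In complex II, the succinate dehydrogenase that also works in the tricarboxylic acid cycle, all 4 subunits had a ratio below 0. A lower call was made for 1 of the 4, against 8.39% of all tested genes. The flavoprotein *Sdha*, which oxidises succinate, had 3057 control and 2288 *Myl3*-KO counts (-0.03, -0.11 to 0.05). The iron-sulfur subunit *Sdhb* had 1918 and 1246 (-0.24, -0.34 to -0.13), lower beyond counting error and just under the limit. Of the membrane anchors, *Sdhd* was called lower with 1781 and 1116 counts (-0.29, -0.40 to -0.18), whereas *Sdhc* had 1248 and 866 (-0.14, -0.27 to -0.02). *Sdha* lay apart from *Sdhb* and *Sdhd*, whose intervals did not reach that of *Sdha*.

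Complex III showed the widest spread among subunits of the electron transport complexes. The 5 small subunits without redox groups had a median of -0.30, and all 5 were lower beyond counting error. *Uqcr11* (chr10:80402997-80406830) was called lower, with 1097 control and 626 *Myl3*-KO counts (-0.42, -0.57 to -0.28), or 140 to 104 FPKM. *Uqcr10* had 1154 and 712 counts (-0.31), *Uqcrq* 1374 and 853 (-0.30), *Uqcrb* 1871 and 1240 (-0.21) and *Uqcrh*, the hinge protein next to cytochrome c1, 2363 and 1655 (-0.13), and the first 3 of the 5 were called.

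The 4 catalytic and core subunits had a median of -0.14, and none was called. *Uqcrfs1*, the Rieske iron-sulfur protein, had 6453 and 4156 counts (-0.249), just short of the limit, with an interval of -0.31 to -0.19. Cytochrome c1 (*Cyc1*) had 1430 and 960 counts (-0.19, -0.31 to -0.07). The core proteins, which face the matrix, were higher in the order. *Uqcrc2* had 2204 and 1579 counts (-0.10, -0.19 to -0.00), and *Uqcrc1* (chr9:108936633-108949623) had 2896 and 2319 (0.07, -0.01 to 0.15). The intervals of *Uqcrc1* and *Uqcr11*, at the ends of the order, did not overlap.

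In complex IV all 11 tested genes were below 0, with a median of -0.24, and 4 of them were called lower. *Cox7b* had 3196 control and 1985 *Myl3*-KO counts (-0.30, -0.38 to -0.22) and *Cox7c* 2911 and 1854 (-0.26). *Ndufa4*, first assigned to complex I and now placed in complex IV, had 6195 and 3955 (-0.26, -0.32 to -0.20), and *Cox8a* 5436 and 3482 (-0.26, -0.32 to -0.19). These 4 are small subunits around the mitochondrially encoded core. *Cox7a2* (447 and 290 counts, -0.24), *Cox6a1* (5661 and 3742, -0.21) and *Cox6b1* (1872 and 1254, -0.19) were other common isoforms of paired genes.

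At the upper end stood *Cox5b* (2350 and 1659 counts, -0.12), *Cox5a* (1036 and 765, -0.05) and *Cox7a2l* (1556 and 1174, -0.02, -0.13 to 0.09), the last a factor that joins complexes III and IV into supercomplexes. *Cox4i1*, a large nuclear subunit that the choice by symbol missed, was like them, with 6226 and 4640 counts (-0.04, -0.09 to 0.02). Its tissue-specific partner *Cox4i2* had 0 in both, and *Ndufab1* of complex I, also missed, had 998 and 690 (-0.15). The interval of *Cox4i1* did not reach that of *Cox8a*, *Ndufa4*, *Cox7c* or *Cox7b*.

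In complex V, as grouped by symbol, 16 of 17 genes were below 0, against 47.3% of all tested genes, with a median of -0.22. Of the 17, 3 were called lower, against 8.39%. Without *Atp5s* and *Atp5sl*, which are not subunits, the median was -0.23. The F1 head turns over ATP on a ring of alpha and beta subunits, rotated by gamma. *Atp5b* (beta, chr10:128083273-128090391) had 31671 control and 21228 *Myl3*-KO counts (-0.19, -0.22 to -0.17), and *Atp5a1* (alpha), its partner in the ring, 10122 and 7450 (-0.06, -0.10 to -0.01). Both were lower beyond counting error, and their intervals did not overlap. *Atp5c1* (gamma) was called lower with 8990 and 5693 counts (-0.27, -0.32 to -0.23), and *Atp5d* (delta) had 3093 and 2144 (-0.14, -0.22 to -0.06). *Atp5e* (epsilon), with the 10 and 6 counts given above, had an interval of -2.09 to 1.25, so no difference in it was detectable at this depth.

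The 4 genes of the peripheral stalk, which holds the head still, were all lower beyond counting error. *Atp5h* was called, with 5404 control and 3245 *Myl3*-KO counts (-0.35, -0.41 to -0.29). The others were close together, with *Atp5o* at -0.24, *Atp5j* at -0.23 and *Atp5f1* at -0.21. Of the small membrane subunits, *Atp5l* was called with 2543 and 1583 counts (-0.30), *Atp5j2* stood at -0.22 and *Atp5k* at -0.18. *Atp5sl* was the highest ratio of all members, with 161 and 149 counts (0.27, -0.06 to 0.61). It is not a subunit, and its interval included 0.

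Subunit c, whose copies form the rotor ring, is made from 3 genes that encode the same mature protein. *Atp5g1* had 2967 and 1921 counts (-0.24, -0.33 to -0.16) and *Atp5g3* 2624 and 1711 (-0.23, -0.32 to -0.14). *Atp5g2* (chr15:102662864-102672352) had 3181 and 2432 counts (-0.00, -0.08 to 0.08), that is 247 FPKM in both libraries. *Atp5g2* made 36.3% of the subunit c counts in the control (exact 95% interval 35.3 to 37.3) and 40.1% in *Myl3*-KO (38.9 to 41.4). The sum of the 3 genes went from 8772 to 6064 counts. *Atp5g2* is uncertain, as 37.5% of its 31-base words also stood in the pseudogene *Gm10175*.

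Length moved with the ratio over the whole table, and the members are short. The length implied by count and FPKM had a median of 747 bases in the members and 2757 in all tested genes. When all genes were cut into 10 bins of length, the median log2 ratio of the other genes was -0.11 in the shortest bin and 0.08 in the longest. Of the 76 members, 71 lay in the 3 shortest bins. In the shortest bin, which held 57 members, their median was -0.23 and 20 (35.1%) were called lower, compared with 18.5% of the other genes there. Ratios below 0 were found in 71.0% of the other genes of that bin and 63.3% of those in the next, compared with 47.3% of all tested genes. Over the bins, 65 of 76 members lay below the median of the other genes of their bin. With the bin median subtracted, an alternative chosen after seeing the data, the members' median was -0.10 and 2 were called. The difference was thus smaller against genes of like length, and the part of length in it was not tested.

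**Figure D3:**
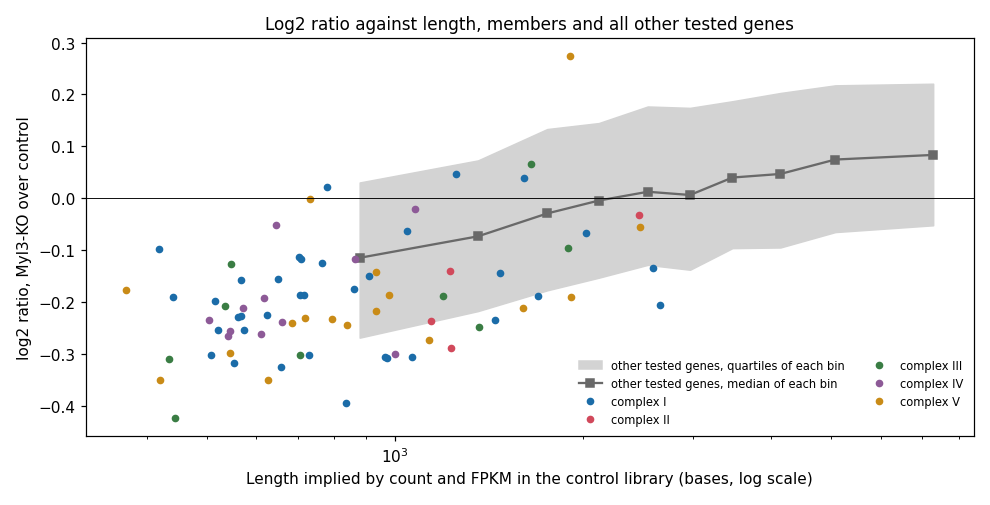
Log2 ratio of Myl3-KO over control (y axis) against length in bases on a log axis, with members as points coloured by complex and the other tested genes as the median (gray line) and quartiles (gray band) of 10 bins, each drawn at its median length. The gray line climbs from -0.11 to 0.08, and 65 of 76 members lie under the median of their bin.

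Among the members themselves, length and log2 ratio had Pearson's r of 0.44 (log2 length) and Spearman's rho of 0.39 over 76 genes of the same 2 libraries, given as a description. The shorter 38 had a median of -0.23 and 14 lower calls, the longer 38 a median of -0.18 and 7 lower calls. Over all tested genes 8.39% were called lower. The members called lower had a median length of 626 bases, and the 5 members above 0 one of 1609 bases. The catalytic and core subunits of complex III were also longer (median 1508 bases) than its small subunits (535 bases), so role and length cannot be told apart there. In complex I the medians were 1066.5 bases for core and 703 for accessory subunits. *Sdha* (2461 bases) was longer than *Sdhb* (1142) and *Sdhd* (1231), and *Atp5a1* (2471) longer than *Atp5b* (1916) and *Atp5c1* (1135). The part of length in these contrasts was not tested.

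Other genes of the pathway were read from lists of their own. Cytochrome c (*Cycs*), the carrier between complexes III and IV, had 2819 control and 1434 *Myl3*-KO counts (-0.59, -0.68 to -0.50), lower than any member, at an implied length of 3123 bases. Its counts were not whole, and it has pseudogene copies in mouse, so the value is uncertain. Of the 44 assembly factors, which help build the complexes, 35 were below 0, with a median of -0.13. Lower calls were made for 8 and higher calls for 0. Of all tested genes, 47.3% were below 0, 8.39% were called lower and 11.4% higher. The lowest were *Uqcc2* of complex III (569 and 322 counts, -0.44), *Ndufaf5* of complex I (371 and 210, -0.44) and *Ndufaf2* of complex I (716 and 430, -0.35). Of the 14 tricarboxylic acid cycle enzymes, 11 were below 0, with a median of -0.05, and 1 was called lower, *Idh3a* (2876 and 1704 counts, -0.37), a catalytic subunit of isocitrate dehydrogenase. Set against the same 47.3% below 0 and 8.39% called lower of all tested genes, 1 call among 14 is near the share of all genes. The partners of *Idh3a*, *Idh3b* (0.03) and *Idh3g* (0.07) had intervals that included 0.

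Genes of the outer membrane and import, through which the subunits enter, had a median of -0.35. All 7 were lower beyond counting error, against 16.8% of all tested genes, and 4 were called lower, against 8.39%. *Tomm70a* had 4188 control and 2407 *Myl3*-KO counts (-0.41), *Tomm20* 5537 and 3289 (-0.37) and *Tomm22* 1948 and 1163 (-0.36). The channel genes *Vdac1*, *Vdac2* and *Vdac3* stood between -0.19 and -0.14. Of 13 regulators of mitochondrial biogenesis, 11 were tested and 6 were below 0, against 47.3% of all tested genes. Lower calls numbered 0, against 8.39%, and higher calls 0, against 11.4%. A list of 11 is too short to read 0 calls as a result. *Ppargc1a*, which encodes a coactivator known for inducing mitochondrial genes, had 0 counts in both libraries. *Nrf1* had 879 and 612 counts (-0.14, -0.29 to 0.01) and *Gabpa* 1552 and 1036 (-0.20, -0.31 to -0.08). *Tfam*, the packaging factor of mitochondrial DNA, had 1730 and 1221 (-0.12, -0.22 to -0.01). Of the 11 tested regulators, 2 were lower beyond counting error, against 16.8% of all tested genes. They were *Gabpa* and *Tfb2m* (817 and 543 counts, -0.20, -0.36 to -0.05). The lowest ratio was that of *Tfb1m* (123 and 75 counts, -0.33), with an interval of -0.76 to 0.10. *Yy1* had 1679 and 1190 counts (-0.11, -0.22 to -0.00). The 5 regulators above 0 were *Esrra* (0.12), *Polrmt* (0.10), *Polg* (0.09), *Pprc1* (0.08) and *Gabpb1* (0.00), all with intervals that included 0. The 13 subunits encoded in the mitochondrial genome were looked up by symbol, and 0 of them were among the genes listed, so they could not be analysed here.

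**Figure D4:**
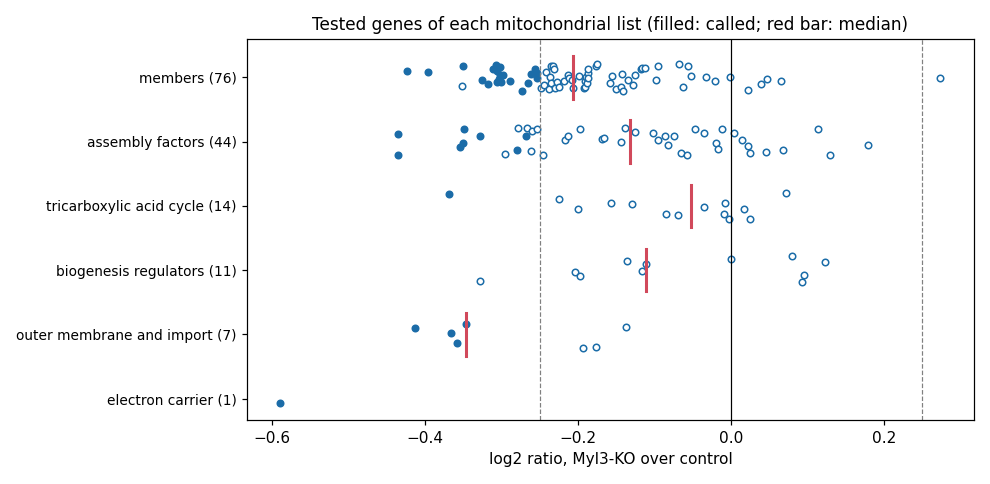
Each point is the log2 ratio, Myl3-KO over control (x axis(x axis), of 1 tested gene, with lists on the y axis and their number of tested genes in brackets, filled where called, a red bar at the median and dashed lines at -0.25 and 0.25. The medians run from -0.35 for outer membrane and import to -0.05 for the tricarboxylic acid cycle, with the members at -0.21.

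Reads of some members could be shared with other genes, and the strand used in counting is not given in the sources used here. Of the 76 tested members, 20 overlapped another counted gene and 30 shared over 10% of their 31-base words with another gene, mostly processed pseudogenes. Together these were 38 genes. Among the called, *Ndufb6* shared 34.4% with *Smim27*, *Ndufs5* 26.5% with *BC002163*, *Atp5h* 24.2% with *Gm10250*, *Cox7c* 19.3% with *Gm10012*, *Ndufb4* 19.1% with *Ndufb4c*, *Atp5l* 14.2% and *Atp5c1* 10.1% over all other genes, and *Uqcr11* 12.1% with *Gm16418*. *Ndufa2* overlapped *Tmco6*. Of the members at the upper end, *Ndufa13* shared 28.3% with *Tssk6* and *Uqcrc2* 18.5% with *Pdzd9*. In the 38 members without such overlap or sharing, the median was -0.23 and 12 were called lower, against 8.39% of all tested genes.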

How the data were processed

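The authors deposited, for each gene, an expected count (estimated reads, not normalized) and an FPKM value for 1 control and 1 *Myl3*-KO library. Libraries were made from bead-selected mRNA with random primers according to the methods, and with a SMARTER kit according to the labels. The submitters' processing notes name GRCm38 and mm10; aligner, counter, annotation and strand are not given in the sources used here. The column headed NC was read as control because the other is headed KO.

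Log2 ratios used counts over library totals, with counts under 3 raised to 3. The quasi-likelihood test of edgeR and the DESeq2 test were not run, since single libraries leave no residual degrees of freedom; edgeR 4.0.16 and DESeq2 1.42.0 gave scaling factors only. Counts were rounded for the exact test and intervals (Python 3.11.15, numpy 2.4.6, pandas 2.3.3, scipy 1.17.1), tested on simulated data. Coordinates, exon lengths and transcripts came from GENCODE M21 on GRCm38, promoters from RefSeq. The members, lists and tests were chosen with earlier results of these data known. Named genes are those called, the catalytic, core and F1 subunits, isoform pairs, the 3 highest and 3 lowest per complex, and up to 3 called genes per other list. Others named were chosen after their values were seen. Values of 1 member are not reported, and the plot of ratios by complex leaves it out.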

Additional observations from a re-analysis of the deposited data

How the results depend on the processing

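TMM and DESeq2 size factors shifted the median of all genes by -0.02 each (log2), and under both, the FPKM ratio, or 1 count added, 71 of 76 members were below 0. Lower calls numbered 28 with TMM, 27 with DESeq2 factors and 21 with FPKM or 1 count added. Both factors shift every gene alike. With no limit on the ratio 51 members (67.1%) were called lower, against 16.8% of all tested genes. Among the 38 members without overlap or shared sequence 12 were called, against 8.39%. At limits of 0.5 or 2 the lower calls numbered 0. For the remaining settings, here and below, the share of all tested genes called is not given, so those numbers of calls alone are no result about the members. With the median of the exon length bin subtracted 7 were called, with the implied length bin 2, and with exon length and count bins 3; the last 2 and the omission of overlapping members were chosen after seeing the data. The medians moved towards 0 with each bin median subtracted. In complexes I to V in order they were -0.07, -0.09, -0.11, -0.11 and -0.11 with the implied length bin, -0.12, -0.10, -0.0893, -0.14 and -0.14 with exon length and count bins, and -0.14, -0.17, -0.16, -0.15 and -0.21 with the exon length bin. No median of the members or of a complex changed sign in these settings. Single members did change side. Of the 76, 65 lay below the median of the other genes of their implied length bin, compared with 71 below 0. No interval of a median was computed, and the intervals of single genes cover counting error only. No replicate could be left out, and no paired analysis was possible because each genotype has 1 library.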

Other observations

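Some genes of the ATP synthase and of its inhibitor stand in the table under older symbols outside the choice by name and were added after their values were seen. *Usmg5*, which encodes the small membrane subunit DAPIT, had 1152 control and 608 *Myl3*-KO counts (log2 -0.54, counting interval -0.68 to -0.39), lower than any of the 76 tested members. *2010107E04Rik*, which encodes another small proteolipid of the enzyme, had 1163 and 753 counts (-0.24, -0.38 to -0.11). *Atpif1*, the inhibitor that binds the F1 head, had 1712 and 1260 counts (-0.06, -0.16 to 0.05).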
